A study of Sus scrofa with 4 samples.

Results

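Solute carriers are membrane proteins that move small molecules such as sugars, amino acids, metal and inorganic ions, nucleotide sugars and fuel molecules across membranes by facilitated diffusion, cotransport or exchange. In the heart they bring glucose, fatty acids, carnitine and creatine into the muscle cell, and the SLC25 family carries phosphate, nucleotides and metabolites across the inner mitochondrial membrane. The genes described here were those whose single platform gene symbol starts with SLC followed by a digit. They came to 119 of the 6765 genes with such a symbol and were measured by 175 probe sets. Where a gene had several, the one with the highest log2 signal averaged over the 4 arrays was taken. Of these genes, 66 reached an average log2 signal of 7, the minimum used throughout, and are described by substrate: 18 SLC25 family members, 10 metal, 9 amino acid, 9 SLC35 family (nucleotide sugar), 5 sugar and 3 inorganic ion transporters, 9 of other substrates, and 3 adaptors or regulators (SLC9A3R1, SLC9A3R2 and SLC2A4RG) that carry no solute but match the symbol rule. The other 53 were dimmer. Signals are given in MAS 5.0 units, that is, 2 to the power of the log2 signal. Just above the minimum lay SLC11A2 (mean of 129.5 units) and SLC5A6 (142), and just below it SLC25A14 (127) and SLC1A1 (122).

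RNA came from the hearts of female Chinese Bama minipigs, 4 months old, in which myocardial infarction (MI) was made by permanent ligation of the left circumflex coronary artery. Tissue of 2 zones, border and infarct, was taken from hearts with and without transplanted myoblasts, with 1 array per group and 4 in all. According to the methods, the myoblast group received 50000000 human skeletal myoblasts in 5 ml of DMEM by 10 intramyocardial injections, with cyclosporin A at 5 mg/kg. The labels call the control tissue untreated. It is read here as the control treatment group of the methods, which received DMEM and the same cyclosporin A, and if the labels mean hearts without injection, each ratio also holds those differences. The week of sampling and the number of minipigs behind each array are not given in the sources used here. With 1 array per group there were no replicates, so no error between minipigs and no test can be given, and a gene was called at 2-fold, the threshold the study used. As a guide to precision, the SD of the log2 difference between the control border and infarct arrays was 0.343 over the genes of mean log2 signal 7 to 9, 0.219 from 9 to 11 and 0.165 above 11. Between the zones with myoblasts it was 0.435, 0.366 and 0.333. These are spreads between zones and not between minipigs.

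Array medians lay between 137 and 142 units. All 18 measured cardiomyocyte markers had a mean signal above the minimum, so the arrays showed markers of heart muscle. Of them 16 were lower with myoblasts in both zones (median log2 ratio of the list -0.28). Their summed signal was 300674 and 332111 units with myoblasts (border and infarct zone) against 354700 and 409659 in controls. In both treatments this sum was higher in the infarct than in the border zone, so these markers do not bear out the zone labels. Of 17 macrophage and monocyte markers, 10 were higher in both zones and 1 lower (summed signal 26014 and 33416 units against 22660 and 25550), and of 16 endothelial markers 10 were higher in both zones and 3 lower (15346 and 19817 against 12689 and 11398). The minimum was reached by 15 macrophage markers (10 higher in both zones, 1 lower) and 12 endothelial ones (8 and 1). Of all 4931 genes that reached it, 35.4% were higher in both zones and 32.8% lower in both. VCAM1 held 5747 and 8269 units of the endothelial sum against 3618 and 2762 in controls. PECAM1 (ratios of 0.86 and 1.12) and VWF (0.899 and 1.05) had opposite signs in the zones. No cardiomyocyte marker lay under the array median on any array, while 2 or 3 macrophage and 3 to 5 endothelial markers did. The fibroblast and matrix list (15 measured) differed by zone, with a median log2 ratio of 0.53 in the border and -0.39 in the infarct zone and summed signals of 180487 and 112645 units with myoblasts against 141686 and 141903. The poly-A spike-in controls added to the RNA were higher on the myoblast border array, 1 dap 3' probe set having 3362 units there, 1538 on the myoblast infarct array and 1279 and 1956 on the control arrays. The 28S rRNA signal was 8477 and 10230 units with myoblasts against 15770 and 15983 in controls. The 28S rRNA signal thus separated by treatment. The dap 3' signal did not, since the myoblast infarct array lay between the control arrays and the myoblast border array stood above the rest. The part of the marker lists, spike-in controls and rRNA in the ratios below was not tested. Fewer cells of a type and less RNA per cell cannot be told apart in bulk tissue. Whether human transcripts from the graft bound the porcine probes was not tested, and of 11 skeletal muscle markers measured 9 lay under the array median on every array.

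Averaged over the zones, 4 of the 66 genes passed 2-fold on the higher side with myoblasts, SLC27A6, SLC46A2, SLC22A3 and SLC2A3, and 1 on the lower side, SLC3A1. These are 6.06% and 1.52% of the 66, while of the 4931 genes of the array with the same minimum signal 1.6% were higher and 1.18% lower. SLC27A6 and SLC46A2 averaged below the minimum in controls and reached it only through the myoblast arrays, where they had to be higher, so the share of 6.06% says little beside the background. SLC2A3 and SLC22A3 did not depend on the minimum in this way. They lay at the threshold, and with each array centred on its median the count was 2 higher and 1 lower. At 1.5-fold, SLC25A24 and SLC35F6 joined the higher genes (6 in all, background 6.02%) and SLC25A12 and SLC25A21 the lower ones (3 in all, background 5.21%). In the border zone 2 genes were at least 2-fold higher (SLC35F6 and SLC46A2, background 2.11%) and 1 lower (background 1.78%), and in the infarct zone 4 higher (background 2.23%) and 1 lower (background 1.66%). Past 2-fold in each of the zones, 1 gene was higher (SLC46A2, background 0.872%) and 1 lower (SLC3A1, background 0.75%). Higher and lower genes nearly balanced: the median log2 ratio was 0.028 as the zone average, beside 0.017 over all 4931 genes. The quartiles were -0.27 and 0.25, beside -0.20 and 0.22. Without regard to sign, the median size of the log2 ratio was 0.279 in the border and 0.315 in the infarct zone, beside 0.245 and 0.236. The 66 were also dimmer, with median signals of 372 to 409 units on the arrays against 717 to 727 over the 4931. The part of signal in these sizes was not tested. By sign, 20 of the 66 were higher in both zones (30.3%, background 35.4%), 22 lower in both (33.3%, background 32.8%) and 24 had opposite signs in the zones (36.4%, background 31.8%). Opposite signs of at least 0.2 on the log2 scale in each zone were found for 5 (7.58%, background 6.41%). Both myoblast arrays lay above both control arrays for 15 genes (background 27.6%) and below them for 18 (background 26.0%).

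SLC3A1 (rBAT), the heavy subunit of a transporter for cystine and dibasic amino acids best known from kidney and intestine, had the largest difference of the 66. Its signals were 162 and 223 units with myoblasts (border and infarct zone) and 919 and 1176 units in controls. Both myoblast arrays lay far below both control arrays, at 0.176 and 0.19 times the control signal in the border and infarct zone. The second SLC3A1 probe set pointed the same way, with 72.6 and 86. units after transplantation versus 193 and 215 in controls in the same order of zones, or 0.376 and 0.401 times control. In the reference annotation the gene PREPL overlaps SLC3A1, and the position of the probes was not known here. SLC7A9, the light subunit that pairs with SLC3A1, was dim, at 2.09 and 4.77 units after transplantation versus 9.59 and 14.8 in controls. The zones of one treatment were closer, the infarct over border ratio of SLC3A1 being 1.28 in controls and 1.38 with myoblasts.

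The 4 genes past 2-fold on the higher side come from different families. SLC2A3 (GLUT3), a high-affinity glucose transporter of neurons and leukocytes, had signals of 2899 and 3964 units with myoblasts (border and infarct zone) and 1729 and 1657 units in controls. The ratios were 1.68 and 2.39, with control zones alike and the infarct zone highest after myoblasts. SLC22A3 (OCT3), a transporter of organic cations that include catecholamines, gave 835 and 1403 units after transplantation versus 518 and 550.3 in controls, ratios of 1.61 and 2.55. In the reference annotation the gene PLG overlaps SLC22A3. Again all myoblast signals exceeded all control signals, and the infarct zone array with myoblasts was the highest. SLC27A6 (FATP6), a fatty acid transport protein of heart muscle, had 176 and 375 units with myoblasts (border and infarct zone) and 115 and 92.7 units in controls. Its ratios of 1.53 and 4.04 differed more between zones than those of any other gene of the 66 past 2-fold, and both control signals lay below the minimum. Other SLC27A6 probe sets were dim, at 17.4 and 34. against 27.3 and 14.7 units and 27.5 and 9.27 against 13.5 and 11.5, and with all probe sets of the gene averaged its mean log2 ratio was 0.65. SLC46A2, a thymic stromal relative of the folate transporter SLC46A1, was at 265 and 200.2 units after transplantation versus 132 and 88.5 in controls, ratios of 2.01 and 2.26. If signals below an array's median were raised to that median, the zone-average log2 ratio was 0.90 for SLC27A6 and 0.74 for SLC46A2, both under 2-fold.

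**Figure D1:**
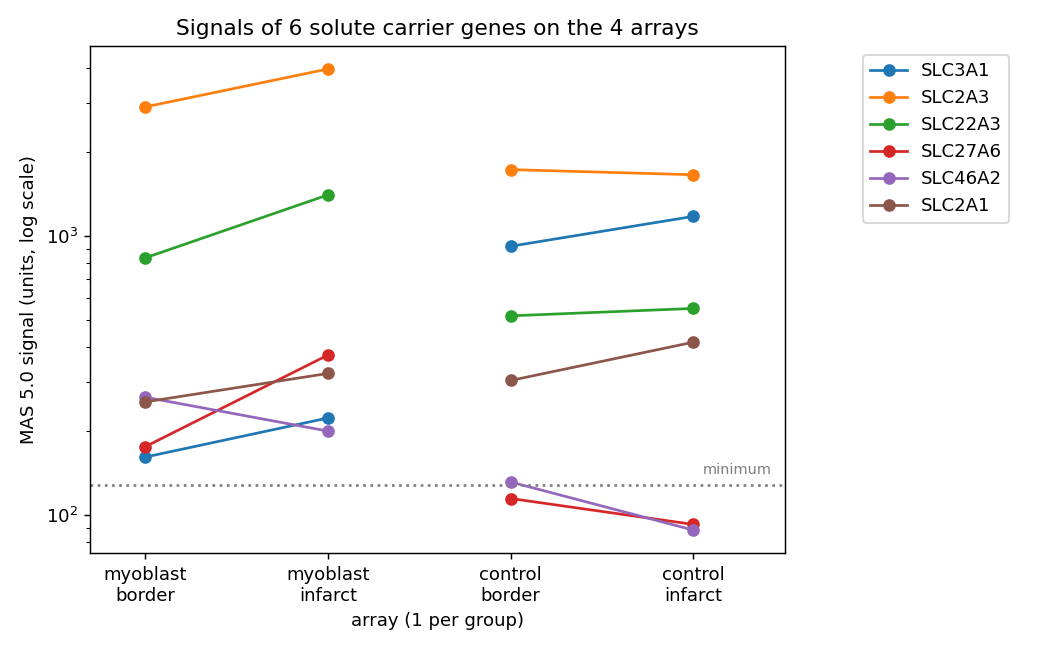
MAS 5.0 signal in units (y axis, log scale) of SLC3A1, SLC2A3, SLC22A3, SLC27A6, SLC46A2 and SLC2A1 on the 4 arrays (x axis); each point is 1 array, lines join the zones of one treatment, and the dotted line marks the minimum, 7 on the log2 scale. SLC3A1 lies at 162 and 223 units with myoblasts and at 919 and 1176 in controls, whereas SLC2A3, SLC22A3, SLC27A6 and SLC46A2 are higher on both myoblast arrays.

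Sugar transporters other than SLC2A3 stayed within 1.5-fold of control, SLC2A1, SLC50A1 and SLC5A4 being lower in both zones and SLC37A4 in the infarct zone alone. SLC2A1 (GLUT1), the basal glucose transporter of most cells, had signals of 255 and 322 units with myoblasts (border and infarct zone) and 304 and 417 units in controls. Each zone was lower with myoblasts (0.838 and 0.773 times control), but the infarct zone signal with myoblasts exceeded the control border signal, so the treatments overlapped. SLC50A1 (SWEET1), a sugar transporter of the Golgi, had ratios of 0.791 and 0.873, and SLC5A4 (SGLT3), a member of the sodium-glucose cotransporter family, 0.877 and 0.78. SLC37A4, which carries glucose 6-phosphate into the endoplasmic reticulum, had 1.05 and 0.792. The median of the 5 genes was -0.27 on the log2 scale, with 3 lower in both zones (background 32.8%), 1 higher in both (background 35.4%) and 1 of opposite signs (background 31.8%). With a lower minimum log2 signal of 6 this median was -0.084. SLC2A4 (GLUT4), the insulin-responsive transporter of muscle, was dim on all of its 3 probe sets, at 59.4, 56.1 and 48.4 units in the mean. They did not share a direction: the ratios were 0.754 and 3.79 on the first, 0.704 and 0.493 on the second and 0.964 and 0.819 on the third, so no direction is given for SLC2A4.

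Amino acid transporters other than SLC3A1 stayed under 2-fold in each zone, and their ratios differed between zones in several cases. SLC38A1 (SNAT1), a sodium-coupled glutamine transporter, had signals of 1918 and 2892 units with myoblasts (border and infarct zone) and 1654 and 1878 units in controls. Both myoblast arrays lay above both control arrays, with ratios of 1.16 and 1.54, and a second probe set of high signal gave 1.14 and 1.47, while a dim one gave 0.881 and 0.524. SLC1A2 (EAAT2), a glutamate transporter, had 474 and 705 units after transplantation versus 552 and 407 in controls, lower with myoblasts in the border zone (0.858 times) and higher in the infarct zone (1.73 times). SLC7A7 (y+LAT1), the light subunit of a cationic amino acid exchanger that is abundant in macrophages, was also higher with myoblasts in the infarct zone alone, with signals of 159.6 and 252 units after transplantation versus 164 and 139.8 in controls. Its second, dim probe set had ratios of 1.13 and 0.918, so its direction in the infarct zone depends on the probe set, and in the reference annotation the gene OXA1L overlaps SLC7A7. Its partner, the heavy subunit SLC3A2 (4F2hc, CD98), had 139 and 188 units after transplantation versus 119 and 188 in controls, ratios of 1.17 and 1.0. SLC38A9, the lysosomal arginine sensor upstream of mTORC1, gave 379 and 417 units after transplantation versus 699 and 411 in controls, so that the control border array stood above the other 3. Its second probe set, also above the minimum, had ratios of 0.934 and 0.728. There the control border signal (178 units) lay below the control infarct signal (193). SLC1A5 (ASCT2), a neutral amino acid exchanger, was nearly level with control in each zone (0.972 and 0.986 times), as was SLC38A10 (0.909 and 0.904). The cationic amino acid transporter SLC7A1 had 1.16 and 0.888. Over the 9 genes, 2 were higher in both zones (22.2%, background 35.4%), 3 lower in both (33.3%, background 32.8%) and 4 of opposite signs (44.4%, background 31.8%), and the median log2 ratio was 0.019.

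Of the 18 SLC25 family members, 8 were lower in both zones (44.4%, background 32.8%), 7 higher in both (38.9%, background 35.4%) and 3 of opposite signs (16.7%, background 31.8%). None reached 2-fold in either zone. The 8 genes lower in both zones carry different substrates. SLC25A3, the phosphate carrier that supplies ATP synthase, had signals of 16965 and 18363 units with myoblasts (border and infarct zone) and 23189 and 25644 units in controls. The ratios were 0.732 and 0.716, nearly the same in the zones, and each myoblast array lay below each control array, as was the case for all 8 genes on the lower side. The other SLC25A3 probe set, also above the minimum (mean of 251 units), had ratios of 0.78 and 0.987. SLC25A12 (aralar), the aspartate-glutamate carrier of the malate-aspartate shuttle, had 1789 and 2165 units after transplantation versus 3221 and 3145 in controls, ratios of 0.556 and 0.688. SLC25A11, the oxoglutarate carrier of the same shuttle, had 607 and 669 units after transplantation versus 789 and 1029.7 in controls, ratios of 0.77 and 0.649. SLC25A21, which carries oxodicarboxylates, had 0.571 and 0.754 times control and SLC25A39, a carrier linked to mitochondrial glutathione, 0.606 and 0.87. The ADP/ATP carriers had smaller differences: SLC25A4 (ANT1, the heart and muscle form) had 17056 and 19198 units after transplantation versus 19682 and 20998 in controls, ratios of 0.867 and 0.914, SLC25A5 (ANT2) 0.826 and 0.89, and SLC25A6 (ANT3) 0.989 and 0.90. These 3 genes are close paralogs, so that their probes may bind one another's transcripts.

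The 7 genes higher in both zones carry different substrates. SLC25A24, an ATP-Mg/phosphate carrier regulated by calcium, had signals of 1881 and 1503 units with myoblasts (border and infarct zone) and 1092 and 1059 units in controls. Both myoblast arrays exceeded both control arrays, with ratios of 1.72 and 1.42. SLC25A20, the carnitine-acylcarnitine carrier that takes fatty acids into mitochondria for oxidation, had 855 and 997 units after transplantation versus 643 and 627 in controls, ratios of 1.33 and 1.59. SLC25A36, a pyrimidine nucleotide carrier, had 1.26 and 1.6, the peroxisomal SLC25A17 1.13 and 1.39, SLC25A46 of the outer membrane 1.19 and 1.25, the glycine carrier SLC25A38 1.22 and 1.14 and SLC25A30 1.13 and 1.2. The remaining 3 had opposite signs, namely the citrate carrier SLC25A1 (1.43 and 0.844), the iron importer SLC25A37 (mitoferrin 1, 1.24 and 0.939) and SLC25A33 (0.701 and 1.02). The median log2 ratio over the 18 was 0.011. Cardiomyocyte markers were lower on the same arrays as the lower SLC25 genes, at a median log2 ratio of -0.28, and their part in these values was not tested.

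**Figure D2:**
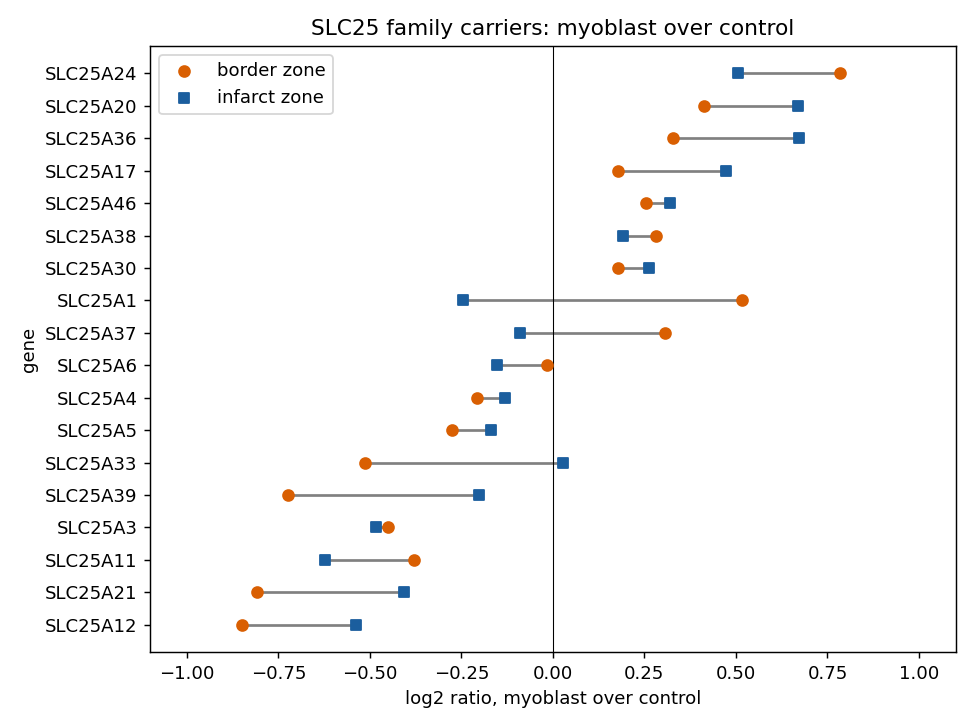
Log2 of the myoblast signal divided by the control signal (x axis) for the 18 SLC25 family genes at or above the minimum signal (y axis), with circles for the border zone, squares for the infarct zone and grey lines joining them; there is 1 array per group, so no error bars. SLC25A12, SLC25A21, SLC25A11 and SLC25A3 lie below 0 in both zones, SLC25A24, SLC25A20 and SLC25A36 above 0, and all values stay within 2-fold.

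Carriers of cardiac fuels and of creatine outside the SLC25 family went both ways. SLC6A8, the creatine transporter of the muscle membrane, had signals of 532 and 636 units with myoblasts (border and infarct zone) and 780.4 and 967 units in controls. Both myoblast arrays lay below both control arrays, and the ratios of 0.682 and 0.657 were alike in the zones. SLC22A5 (OCTN2), which takes up carnitine, was likewise lower on both myoblast arrays, with 169 and 166 units after transplantation versus 223 and 239.8 in controls, ratios of 0.757 and 0.693, whereas the mitochondrial carnitine-acylcarnitine carrier SLC25A20 was higher. The fatty acid transport protein SLC27A1 (FATP1) lay below the minimum, at 95.6 and 97.5 units after transplantation versus 150.2 and 111 in controls. SLC44A2 (CTL2), a choline transporter-like protein, had ratios of 0.895 and 0.763, but its next probe set had 1.0 and 1.16, so its direction depends on the probe set. SLC16A3 (MCT4), the lactate exporter of glycolytic cells, was dim (53.7 and 84.6 units after transplantation versus 54.9 and 62.4 in controls).

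No ion or metal transporter reached 2-fold in a zone. For the 3 ion transporters the median size of the log2 ratio, without regard to sign, was 0.480 (border zone) and 0.011 (infarct zone). For the 10 metal transporters it was 0.179 and 0.275, beside 0.245 and 0.236 over all 4931 genes. SLC41A1, a magnesium transporter, had signals of 1534 and 2391 units with myoblasts (border and infarct zone) and 2427 and 2964 units in controls, lower with myoblasts in both zones (0.632 and 0.807 times). Its other probe sets gave 0.829 and 1.29, 0.622 and 0.78 and 0.573 and 0.632, of which the first was higher than control in the infarct zone. SLC12A4 (KCC1), a potassium-chloride cotransporter, had ratios of 1.39 and 0.994, and the anion transporter SLC26A11 1.13 and 1.01. Of the 10 metal transporters, 1 was higher in both zones (background 35.4%), 2 were lower in both (background 32.8%) and 7 had opposite signs (background 31.8%), with a median log2 ratio of -0.022. Opposite signs of at least 0.2 on the log2 scale in each zone were found for 2 of the 10, SLC39A4 and SLC31A2 (background 6.41%). The gene higher in both zones was SLC11A2 (DMT1), the divalent metal transporter that moves iron, with 155 and 152 units after transplantation versus 129.9 and 91.9 in controls. The zinc importers SLC39A1 (ZIP1, ratios of 0.963 and 1.07) and SLC39A7 (ZIP7, 1.09 and 0.705) and the copper importer SLC31A1 (CTR1, 0.905 and 1.33) had opposite signs in the zones. A second SLC39A1 probe set above the minimum had 1.11 and 0.813, the reverse direction in each zone. SLC39A5 was lower in both zones (0.699 and 0.864), as was SLC39A14 (0.768 and 0.967), a carrier of zinc and iron. The second, dim SLC39A5 probe set had 1.4 and 0.806. SLC39A4, a zinc importer known from the intestine, had 1.15 and 0.593. SLC31A2, SLC30A3 and SLC30A5 had ratios of 1.43 and 0.796, 1.0 and 0.908 and 0.898 and 1.16. A second SLC30A5 probe set above the minimum was higher in both zones (1.32 and 1.32), so its border direction depends on the probe set. SLC11A1 (NRAMP1), a metal transporter of phagosomes in macrophages, lay under the minimum, and its highest signal was on the infarct zone array with myoblasts (59. and 128.4 units after transplantation versus 76.2 and 67.9 in controls).

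The SLC35 family, many of whose members bring nucleotide sugars into the Golgi and endoplasmic reticulum, had 9 members, of which 4 were higher in both zones (44.4%, background 35.4%), 5 had opposite signs (55.6%, background 31.8%) and 0 were lower in both (background 32.8%), with a median log2 ratio of 0.15. SLC35F6 had the largest difference, with signals of 436 and 375 units with myoblasts (border and infarct zone) and 205 and 298 units in controls. It passed 2-fold in the border zone (2.13 times control, where 2.11% of all 4931 genes were at least 2-fold higher) but not in the infarct zone (1.26), and its dimmer probe set was higher in both zones as well (4.03 and 1.72). SLC35A3, which carries UDP-N-acetylglucosamine, had 1.31 and 1.5 and SLC35F5 1.38 and 1.1. SLC35B1, an ATP/ADP exchanger of the endoplasmic reticulum, had 1.14 and 1.08. The nucleotide sugar carrier SLC35D2 (1.08 and 0.939), the sulfate donor carriers SLC35B2 (1.0 and 1.07) and SLC35B3 (1.06 and 0.72), SLC35A4 (1.01 and 0.60) and SLC35C2 (1.64 and 0.858) had opposite signs in the zones, the border ratio of SLC35B2 being within rounding of control.

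Among the remaining genes, the folate carrier SLC46A1 had ratios of 1.39 and 0.877, the biotin and pantothenate carrier SLC5A6 0.917 and 1.54 and the acetyl-CoA carrier SLC33A1 1.11 and 0.973. Other SLC33A1 probe sets above the minimum had 1.07 and 0.74 and 1.8 and 1.16, so its infarct direction depends on the probe set. The adaptors SLC9A3R2 (NHERF2) and SLC2A4RG, a regulator of SLC2A4 transcription, were lower in both zones (0.775 and 0.844 and 0.61 and 0.867), whereas the adaptor SLC9A3R1 (NHERF1) was slightly higher in both (1.06 and 1.1). Second probe sets were present for 28 of the 66 genes. Of 12 other probe sets with a mean signal above the minimum 8 had the same sign in the mean over zones as the chosen one, and of 27 dim ones 19 did. Other genes of the 66 that overlap named protein-coding genes in the reference annotation were SLC38A9 (PLPP1), SLC39A5 (ANKRD52), SLC25A21 (PAX9), SLC25A11 (RNF167), SLC35B2 (HSP90AB1), SLC5A6 (ATRAID) and SLC22A5 (IRF1, IL5 and RAD50).

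**Figure D3:**
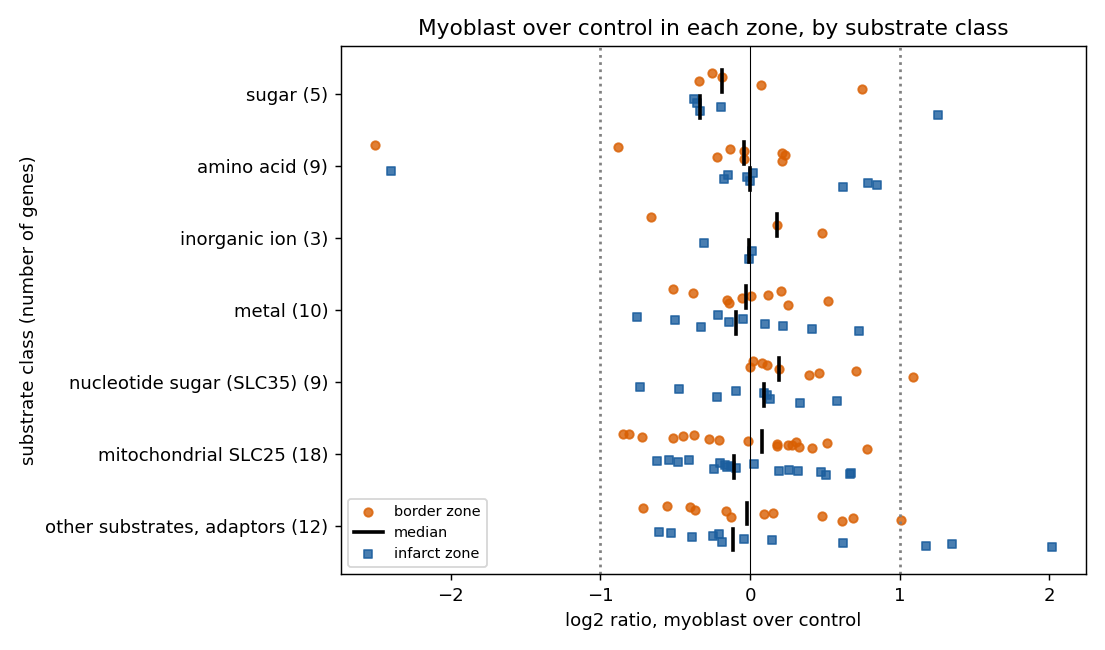
Log2 of the myoblast signal divided by the control signal (x axis) for the 66 genes by substrate class (y axis, number of genes in brackets), with circles for the border zone, squares for the infarct zone, black bars for the median of the class in a zone and dotted lines at 2-fold. SLC3A1 stands apart at -2.51 and -2.40 in the amino acid class, and the other points outside the dotted lines are SLC2A3, SLC35F6, SLC22A3, SLC27A6 and SLC46A2.

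Between the infarct and border zones of control hearts, 0 of the 66 genes were at least 2-fold apart, which is near the 0.548% of the 4931 genes, and with all probe sets of a gene averaged 4 were. At 1.5-fold 2 of the 66 were apart (3.03%, background 3.75%). These were SLC38A9 (0.588 times the border signal in the infarct zone) and SLC3A2 (1.58). A second SLC38A9 probe set above the minimum had 178 units in the control border and 193 in the control infarct zone. The SLC38A9 difference between control zones thus depends on the probe set. After myoblast transplantation 1 gene was at least 2-fold apart, SLC27A6 (2.13 times, background 2.19%), and 13 were at least 1.5-fold apart (19.7%, background 9.0%). Higher in the infarct zone among those were also SLC22A3 (1.68), SLC7A7 (1.58), SLC41A1 (1.56), SLC25A33 (1.54), SLC25A46 (1.53), SLC25A21 (1.53) and SLC38A1 (1.51). Lower there were SLC35A4 (0.556), SLC39A7 (0.566), SLC35C2 (0.637), SLC37A4 (0.655) and SLC39A4 (0.664). The median size of the log2 difference between zones was 0.19 in controls and 0.31 with myoblasts for the 66, beside 0.14 and 0.20 over all 4931 genes. Both medians were thus larger with myoblasts than in controls, for the 66 and for all genes. The 66 were dimmer than the 4931 (median signals of 372 to 409 against 717 to 727 units), and the spread between zones was larger at lower signal. The part of signal in the larger shares and medians of the 66 was not tested.

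**Figure D4:**
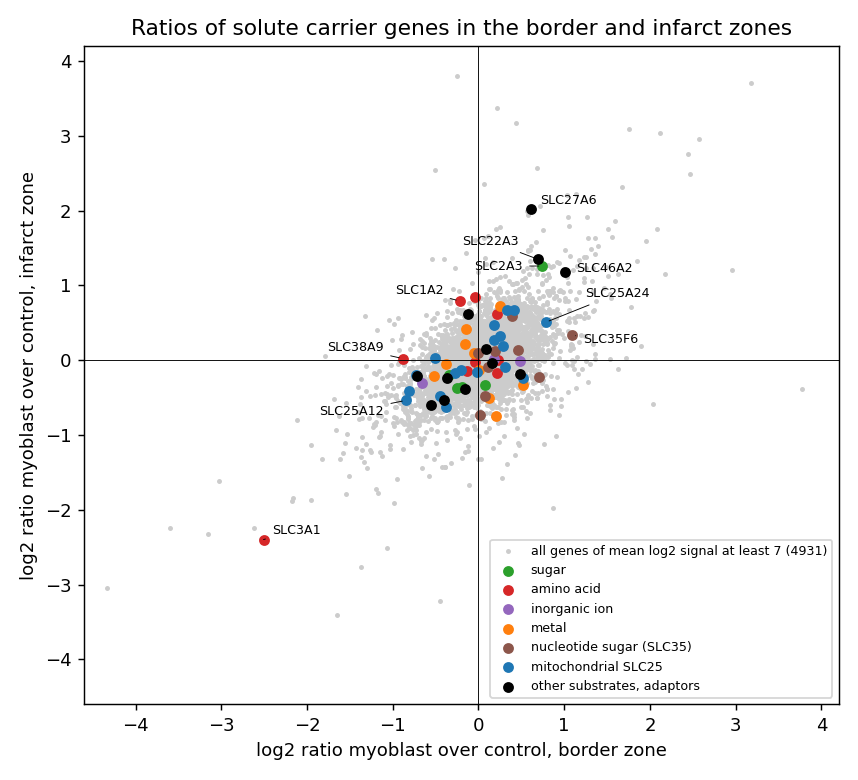
Log2 ratio of myoblast over control in the border zone (x axis) against the infarct zone (y axis); grey points are all 4931 genes at or above the minimum signal and coloured points the 66 solute carrier genes by class. SLC3A1 lies far from the other solute carrier genes at the lower left, SLC27A6, SLC22A3, SLC2A3 and SLC46A2 at the upper right, and SLC35F6 to the right of 2-fold in the border zone alone.

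Other genes linked to transport were taken from a separate list of 24, of which 17 had a probe set and 15 reached the minimum. The list held pumps, chaperones, pores and iron proteins, but also carriers outside the symbol rule, such as the organic anion transporters SLCO2B1 and SLCO3A1. No gene of the 15 was 2-fold apart as the zone average. Of them 10 were lower in both zones (background 32.8%) and 1 higher in both (background 35.4%), with a median log2 ratio of -0.17 beside 0.017 over all 4931 genes. SLCO3A1 was among the 10, with the largest fall of the 15 as the zone average (ratios of 0.734 and 0.681), while SLCO2B1 had 0.847 and 1.25. BSG (basigin), the chaperone of monocarboxylate transporters, had ratios of 0.986 and 1.15. The sodium pump subunit ATP1B1, part of the pump that maintains the sodium gradient for cotransport, had 9244 and 11462 units after transplantation versus 12961 and 13622 in controls, ratios of 0.713 and 0.841. The mitochondrial pyruvate carrier subunits MPC1 and MPC2 had 0.866 and 0.886 and 0.877 and 1.03, and the outer membrane pores VDAC1, VDAC2 and VDAC3 0.835 and 0.897, 0.861 and 0.934 and 0.773 and 0.874. TXNIP, which promotes removal of glucose transporters from the cell surface, had 0.828 and 0.765. The gene higher in both zones was FTL, the ferritin light chain (1.14 and 1.13).

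The 53 genes under the minimum were not described by substrate, since at such signals the arrays of control hearts also differed widely: of the 1834 genes under the minimum, 31.6% were at least 2-fold apart between the control zones. Of the 53, 5 passed 2-fold on the higher side as the zone average (9.43%, background 14.2%) and 9 on the lower side (17.0%, background 12.5%). In each zone separately, 1 was at least 2-fold higher (SLC5A5, background 5.23%) and 5 at least 2-fold lower (SLC29A1, SLC34A2, SLC4A2, SLC7A9 and SLC22A8, background 4.8%).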

How the data were processed

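Heart RNA was hybridized to Affymetrix Porcine Genome Arrays, scanned with a GeneChip Scanner 3000 and Command Console Software 3.1. The authors deposited log2 signals, computed with MAS 5.0 and Gene Spring Software 11.0. MAS 5.0 corrects background and sets a shared trimmed mean for all arrays, which lets 1 gene be compared across arrays but assumes equal total signal. No further normalization was applied, and precision is limited by 1 array per group. Platform annotation gave symbols, and 118 of the 119 gene IDs were found in the reference with the same symbol (SLC2A1 was not). Probe sets with several symbols were left out, and 1 gene that the symbol rule would take in is not reported here. Within a zone, log2 control was taken from log2 myoblast, and the differences of the 2 zones were averaged. Python 3.11.15, pandas and numpy were used. The counting code was run on simulated data with planted differences well past 2-fold, which says nothing about genes at the threshold. The members, classes, gene lists and naming rule were chosen with earlier results of these data known. The genes named are those past 2-fold as the zone average or between the zones of one treatment, the 3 brightest and the 2 highest and 2 lowest ratios of each class, and 17 listed transporters, 5 of which had no probe set of a single symbol. All other members of the 66 are named to account for them, chosen after their values were seen. Alternatives were other averaging, each zone alone, quantile normalization, median centring, a floor at the array median, minimum log2 signals of 6 and 8, an arithmetic mean for the minimum, all probe sets of a gene, and 1.5-fold.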

Additional observations from a re-analysis of the deposited data

Results flagged for a closer look

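For 5 of the 66 genes the myoblast over control ratio was on opposite sides of 1 in the zones, by at least 0.2 on the log2 scale in each (7.58%, beside 6.41% of all 4931 genes). With 1 array per group the difference between zones was not tested, and 24 of the 66 had opposite signs when no size was asked for (36.4%, beside 31.8% of all genes). The difference of the log2 ratio, infarct minus border, was 1.01 for SLC1A2 (-0.22 in the border and 0.79 in the infarct zone). It was -0.96 for SLC39A4 (0.20 and -0.75), -0.93 for SLC35C2 (0.71 and -0.22), -0.85 for SLC31A2 (0.52 and -0.33) and -0.76 for SLC25A1 (0.52 and -0.24). A dimmer SLC35C2 probe set had log2 ratios of 0.23 and 0.14, with no opposite sign.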

How the results depend on the processing

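With 1 array per group nothing can be left out, so each zone alone stood in for that. SLC3A1 was at least 2-fold lower under every alternative tried. The count of genes at least 2-fold higher (4) was 2 in the border zone alone (SLC35F6 and SLC46A2), 2 with arrays centred on their medians, 2 with the floor and 2 at a minimum log2 signal of 8, and 3 to 6 otherwise, where averaging all probe sets put SLC35F6 in place of SLC27A6. The count at least 2-fold lower (1) was 2 with all probe sets of a gene averaged (SLC35A4 added) and 3 at 1.5-fold. Between control zones the count (0) was 4 with all probe sets and 2 at 1.5-fold. Between zones with myoblasts the count (1) was 3 at a minimum of 6, 0 at a minimum of 8, 2 with all probe sets and 13 at 1.5-fold. The median log2 ratio of sugar transporters (-0.27) was -0.084 at a minimum of 6. That of amino acid transporters (0.019) was -0.041 in the border zone, -0.029 with quantile normalization, 0.12 at a minimum of 6 and -0.031 at a minimum of 8. That of the 3 ion transporters (0.10) was -0.13 at a minimum of 8 and -0.42 with all probe sets. That of metal transporters (-0.022) was -0.094 in the infarct zone, that of SLC25 genes (0.011) -0.13 at a minimum of 8, and that of all 66 (0.028) -0.070 in the infarct zone and -0.067 at a minimum of 8. Of the 51 genes named by rule, 39 had the sign of the mean over zones in the border zone alone, 46 in the infarct zone alone, 45 with all probe sets, 49 with quantile normalization and 49 with median centring. The causes of these changes were not tested.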

Other observations

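Among the 53 dim genes, a few named after their values were seen had large ratios at signals mostly under the array medians. SLC29A1 (ENT1), an equilibrative nucleoside transporter that takes up adenosine, had 9.37 and 8.77 units after transplantation versus 81.9 and 79.7 in controls, and both myoblast arrays lay far below both controls (0.114 and 0.11 times). SLC34A2, a sodium-phosphate cotransporter, had 34.6 and 12.1 units after transplantation versus 177 and 119 in controls, ratios of 0.196 and 0.102, and SLC4A2 (AE2), a chloride-bicarbonate exchanger, 12.1 and 24.1 units after transplantation versus 42.4 and 74.1 in controls, ratios of 0.286 and 0.325. In the other direction, SLC5A5, the sodium-iodide symporter, had 27.1 and 14.4 units after transplantation versus 2.6 and 1.98 in controls. At such signals a ratio is uncertain, the SD of the log2 difference between the control zones being 1.77 over genes of mean log2 signal under 5 and 0.837 from 5 to 7.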
